A study of Gallus gallus with 9 samples.

Results

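The forkhead genes of the chick embryo were compared among tissues of 3 ages during the formation of the cornea. RNA of 3 tissues of Gallus gallus was sequenced, with 3 libraries for each. The youngest was the periocular neural crest of embryonic day 3 (E3), the next the endothelium of the E5 cornea, and the oldest the E7 cornea's endothelium taken with its keratocytes. Each age was thus a different tissue, and age and tissue cannot be told apart. Genes said below to rise or fall were higher or lower in the corneal libraries than in E3 crest. The family was taken as every gene whose chicken symbol is FOX, a letter from A to S and a number. The name table held 37 such genes, and 32 of them, among 14120 genes in all, had at least 1 entry in the deposited files. FOXC1, FOXC2, FOXJ1, FOXK2 and FOXP2 could not be matched to an entry and were not analysed here. No strain, treatment or sex is labelled, nor whether the 3 libraries of 1 stage were separate embryos or pools. The p-values therefore measure only how these libraries vary, and that variation may be technical.

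Forkhead proteins bind DNA through a shared winged-helix domain, and they are grouped by letter according to how alike that domain is. Several act in mesenchyme and in neural crest: FOXD3 is a specifier of the crest, and FOXC1, FOXF and FOXL genes pattern the mesenchyme of the head and gut. Others are present in most cells, such as the FOXO factors, which insulin and growth factor signalling keep out of the nucleus, the FOXP repressors, and FOXM1, which drives mitotic genes. In the eye, periocular crest surrounds the optic cup and gives rise to the corneal endothelium and the keratocytes, the fibroblasts of the stroma.

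Library totals ran from 9874339 to 23205388 expected counts, and the E7 libraries were the shallowest. The E3 libraries correlated at 0.966 to 0.967 with each other (Pearson's r of log2 CPM over genes, and genes are no independent replicates) and at 0.820 to 0.857 with the corneal libraries. Within the cornea 2 libraries went against their labels. The library labelled E5 library 3 correlated at 0.942 to 0.949 with E7 libraries 1 and 2 and at 0.908 to 0.912 with E5 libraries 1 and 2. The library labelled E7 library 3 correlated at 0.951 to 0.955 with E5 libraries 1 and 2 and at 0.879 to 0.895 with E7 libraries 1 and 2. The counts of called forkhead genes, and the values of some single genes, are therefore also given without these 2 libraries. Corneal identity was read from AQP1, the water channel of the endothelium, and KERA, the keratocyte proteoglycan keratocan: AQP1 was at 524 to 1080 FPKM in the E5 libraries and 545 to 1085 FPKM in the E7 libraries, against 0.48 to 1.20 FPKM at E3. KERA was at 601 to 1803 FPKM in the E5 libraries, labelled as endothelium only, and at 632 to 1952 FPKM in the E7 libraries, against 19.3 to 28.5 FPKM at E3.

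Summed over the 32 measured genes, the forkhead family was more than 2 times as abundant in E3 crest as in the cornea. The excess was made up of measured mesenchymal members and part of the broadly expressed ones. FOXC1 and FOXC2, of the mesenchymal class, had no matched entry, nor had FOXJ1, FOXK2 and FOXP2. These genes are missing from the sums and shares below. The summed level of the 32 genes, in the authors' FPKM (fragments scaled to transcript length and library depth, which can be compared between genes), was 252, 245 and 263 in E3 libraries 1, 2 and 3. It was 90.6, 96.4 and 108 in the E5 libraries and 95.1, 105 and 91.7 in the E7 libraries. The groups of E3 and of the cornea did not overlap, while those of E5 and E7 did. The 10 measured genes of the D, F, L, Q and S subfamilies with FOXE3 held 41.3% to 46.3% of that sum at E3, 1.38% to 2.14% at E5 and 2.02% to 2.77% at E7. The 10 genes of the K, N2, N3, J3, O and P subfamilies held 49.8% to 53.9% at E3, 84.7% to 89.6% at E5 and 83.8% to 89.2% at E7, although their own summed level was lower in the cornea, at 79.2 to 96.6 FPKM at E5 and 76.8 to 93.8 FPKM at E7 against 131 to 136 FPKM at E3.

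**Figure D1:**
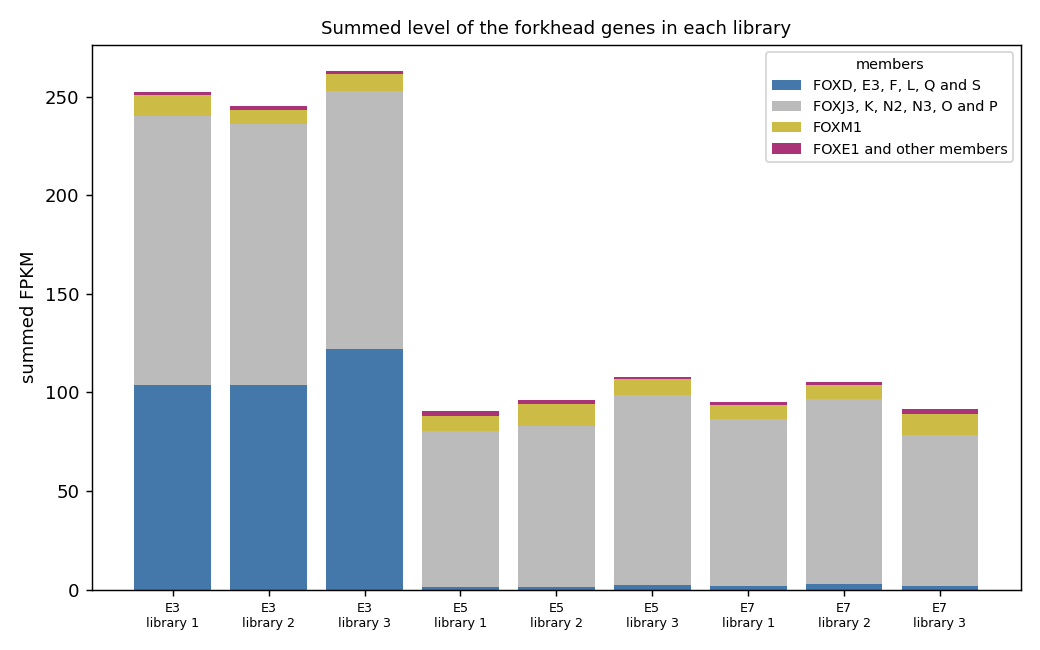
Summed FPKM of the 32 measured forkhead genes in each of the 9 libraries (x axis, E3, E5 and E7 in order of age), with the colours of each bar giving the members by subfamily. The E3 bars reach 245 to 263 FPKM and the corneal bars 90.6 to 108 FPKM. The blue part, the measured mesenchymal members without FOXC1 and FOXC2, is at 104 to 122 FPKM in the E3 libraries. It is at most 2.91 FPKM in the corneal ones.

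At E3 the order of mean levels was led by FOXP4 at 45.0 ± 4.45 FPKM, a forkhead repressor (means are given ± SD with n = 3 throughout). FOXD2, a factor of head and kidney mesenchyme, followed at 32.7 ± 3.63 FPKM and FOXL2, known for eyelid and ovary development, at 29.4 ± 4.59 FPKM. FOXD2 and FOXL2 overlapped each other and lay below FOXP4. A run of 6 genes from FOXD1 (15.3 ± 0.727 FPKM) to FOXO4 (12.3 ± 0.760 FPKM), with FOXJ3, FOXP1, FOXO6 and FOXN2 between them, overlapped neighbour by neighbour. At E5 and E7 FOXP4 was again the highest, at 22.2 ± 3.31 and 20.7 ± 2.6 FPKM, followed by FOXJ3, and the ranks after these were held by FOXO4, FOXO1, FOXM1 and FOXN2. In all, 20 of the 32 genes reached 1 FPKM in at least 1 library. The other 12 stayed below 1 FPKM in every library.

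Of the 32 genes, 23 passed the filter on low counts, and the corneal stages were compared with E3 crest on these. Of them, 12 fell and 2 rose at E5 against E3 (adjusted p under 0.05 in edgeR's quasi-likelihood test, Benjamini-Hochberg adjusted over the 11748 genes tested, as for every adjusted p below unless another tool is named). Among all genes tested 36.2% were called in this comparison, 17.7% as lower and 18.5% as higher. At E7 against E3, 12 fell and 2 rose as well, where 33.7% of all genes were called, 16.4% as lower and 17.3% as higher. All 14 genes called at E5 were called at E7, but both comparisons use the same E3 libraries. A gene that passed the filter through its E3 level alone had to differ, so these counts are not support for a family-wide change. The FPKM values of the groups did not overlap for 15 genes lower and 2 higher at E5 against E3 (36.4% and 20% of all genes, 56.4% together). At E7 against E3 this held for 17 lower and 2 higher (34.2% and 20.4% of all genes, 54.7% together).

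Several of the falls were large. At E5 against E3, 9 forkhead genes were called with a log2 fold change of -3 or lower, a limit chosen after the values were seen, where 1.9% of all genes were. At E7 against E3, 8 were, where 1.58% of all genes were. A gene that passed the filter through its E3 level alone had to fall here too, so these counts are not support for a family-wide change. With E5 library 3 and E7 library 3 left out, 16 fell and 2 rose at E5, where 24.3% of all genes fell and 25.7% rose (50% together). The 4 additional falls were those of FOXE3, FOXI3, FOXO3 and FOXS1. In the same fit 13 fell and 3 rose at E7, where 21% of all genes fell and 21.6% rose (42.6% together), with FOXE3 and FOXN3 as the additional calls. In bulk tissue, fewer cells of a type and less RNA per cell cannot be told apart.

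The D subfamily was the most abundant of the measured mesenchymal groups at E3 and was near 0 in the cornea. FOXD3 (gene ID 395794) was at 8.26, 8.76 and 10.75 FPKM at E3, 0.09, 0 and 0.12 FPKM in the libraries of E5, and 0.28, 0.05 and 0 FPKM in those of E7. Every E3 library lay above every corneal library. The log2 fold change was -6.89 ± 0.98 at E5 against E3 (estimate ± SE, adjusted p = 0.00152) and -6.31 ± 0.98 at E7 against E3 (adjusted p = 0.00231). FOXD1 (396109), which in the chick marks the temporal retina as well as mesenchyme, was at 14.84, 14.84 and 16.10 FPKM at E3, at 0.04, 0.02 and 0.14 FPKM at E5, and at 0.16, 0.04 and 0.09 FPKM at E7. Its corneal values rested on 1.0 to 5.3 counts a library. The log2 fold changes were -7.69 ± 0.55 (E5, adjusted p = 5.50e-05) and -7.27 ± 0.55 (E7, adjusted p = 8.11e-05).

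FOXD2 (395795) had a low corneal level. It was at 30.74, 30.53 and 36.92 FPKM at E3, at 0.63, 0.57 and 0.89 FPKM at E5, and at 0.22, 0.68 and 0.52 FPKM at E7. Its E5 libraries, at 22.0 to 28.4 counts each, stood above the floor of 3 counts. The log2 fold changes were -5.39 ± 0.32 (E5, adjusted p = 2.08e-05) and -5.91 ± 0.33 (E7, adjusted p = 1.98e-05). On the coding gene order of the name table's assembly, FOXD2 lies next to FOXE3, a factor of the lens epithelium, with no coding gene between them. FOXE3 was at 0.24, 0.10 and 0.15 FPKM at E3, at 0, 0.02 and 0 FPKM at E5, and at 0 FPKM in the E7 libraries. It missed the filter, and its 0 counts at E7 against 39 at E3 put it at least 7.52-fold lower, taking 3 counts in the group as the floor.

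Both L genes fell to near 0, FOXL1 from a lower E3 level than FOXL2. FOXL2 (503512) was at 27.17, 26.26 and 34.63 FPKM at E3, at 0.12, 0 and 0.19 FPKM at E5, and at 0.18, 0.39 and 0.47 FPKM at E7. The E3 libraries held 557 to 851 counts and the corneal ones at most 6. The log2 fold changes were -7.96 ± 0.68 (E5, adjusted p = 0.000140) and -6.20 ± 0.62 (E7, adjusted p = 0.000309). FOXL1 (768576), a factor of gut mesenchyme, was at 5.10, 4.89 and 5.35 FPKM at E3, at 0.19, 0.10 and 0.29 FPKM at E5, and at 0.17, 0.36 and 0.29 FPKM at E7. It fell by 4.55 ± 0.45 on the log2 scale at E5 (adjusted p = 0.000286) and by 4.06 ± 0.44 at E7 (adjusted p = 0.000465).

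The F subfamily, which patterns mesenchyme of the gut, lung and palate, moved the same way. FOXF2 (100857760) was at 11.41, 10.51 and 10.87 FPKM at E3, at 0.05, 0.14 and 0.21 FPKM at E5, and at 0.32, 0.17 and 0.10 FPKM at E7. FOXF1 (395624) was at 4.34, 6.19 and 6.0 FPKM at E3, at 0.13, 0.35 and 0.24 FPKM at E5, and at 0.26, 0.43 and 0.28 FPKM at E7. For both genes the E3 libraries lay above all corneal ones. FOXF2 changed by -6.22 ± 0.50 (E5, adjusted p = 0.0001) and -5.69 ± 0.49 (E7, adjusted p = 0.000153), and FOXF1 by -4.33 ± 0.41 (E5, adjusted p = 0.000225) and -3.97 ± 0.40 (E7, adjusted p = 0.000345).

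Some of these genes are chromosomal neighbours in the name table's assembly. FOXF1 and FOXL1 lie on either side of FOXC2, with 1 other coding gene before FOXF1, and their E3 means were 5.51 ± 1.02 and 5.11 ± 0.230 FPKM. FOXF2 and FOXQ1 lie side by side, at 10.9 ± 0.453 and 0.417 ± 0.0737 FPKM, and FOXD2 and FOXE3 likewise, at 32.7 ± 3.63 and 0.163 ± 0.0709 FPKM. The first pair overlapped at E3 and the other pairs lay far apart.

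FOXQ1 and FOXS1 were low throughout. FOXQ1 (107052626) was at 0.39, 0.36 and 0.50 FPKM at E3, at 0, 0.02 and 0.02 FPKM at E5, and at 0.09, 0.03 and 0.04 FPKM at E7. It fell at E5 (log2 fold change -4.54 ± 0.74, adjusted p = 0.00277) and at E7 (-2.87 ± 0.69, adjusted p = 0.0145), and the E7 call was lost without E3 library 3 or E7 library 2, at adjusted p = 0.056 and 0.058. FOXS1 (428156), known in the mouse from crest-derived sensory ganglia and pericytes, was at 1.32, 1.19 and 0.72 FPKM at E3, at 0, 0.14 and 0.21 FPKM at E5, and at 0.27, 0.76 and 0.06 FPKM at E7. The E5 libraries lay below the E3 ones and the E7 libraries overlapped them. FOXS1 had a log2 fold change of -3.01 ± 1.05 at E5 (adjusted p = 0.0554, and 0.0205 with DESeq2) and of -1.41 ± 0.98 at E7 (adjusted p = 0.302), and it did not pass the test.

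**Figure D2:**
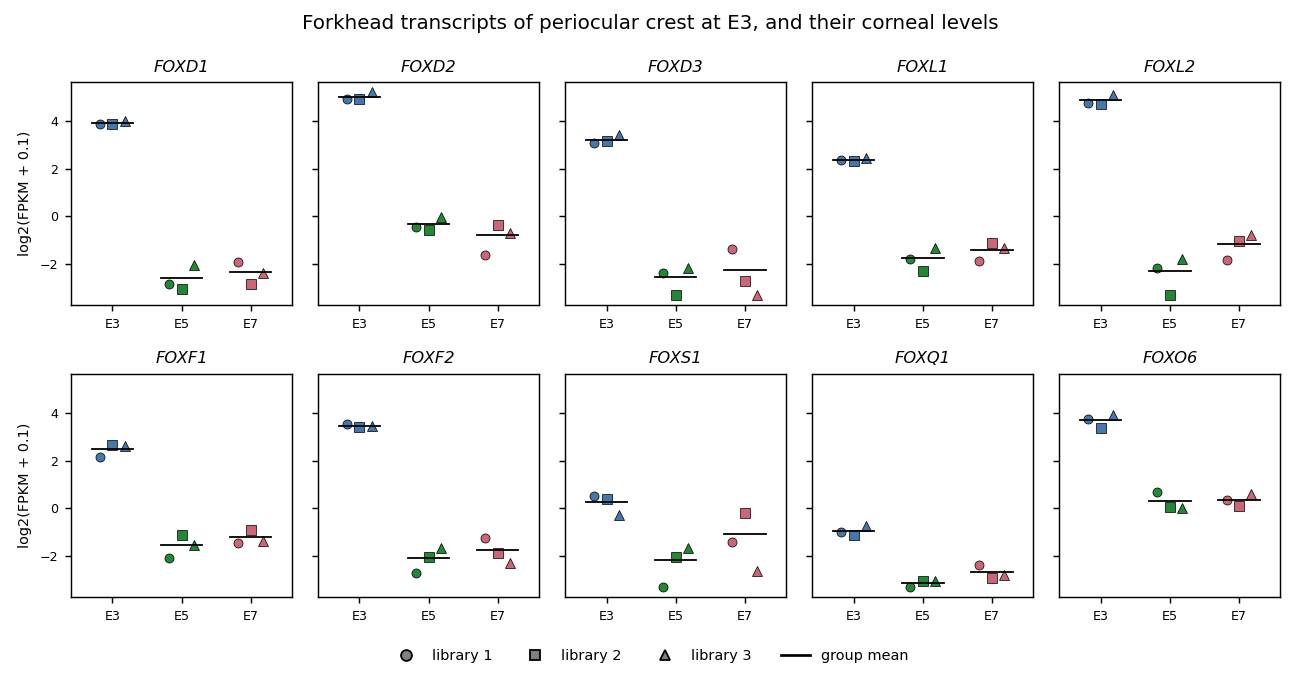
Level of 10 forkhead genes on a log2(FPKM + 0.1) scale in the E3, E5 and E7 libraries; each symbol is 1 library and each line the transform of the group's mean FPKM. In 9 of the 10 panels the E3 libraries lie above every corneal library, and in the FOXS1 panel E7 library 2 at 0.76 FPKM lies within the E3 range of 0.72 to 1.32 FPKM.

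FOXO6 (100857767), a FOXO factor best known from brain, also had its high level at E3. It was at 13.37, 10.31 and 15.04 FPKM at E3, at 1.52, 0.93 and 0.91 FPKM at E5, and at 1.16, 0.97 and 1.39 FPKM at E7. The log2 fold changes were -3.34 ± 0.29 (E5, adjusted p = 0.000146) and -3.32 ± 0.29 (E7, adjusted p = 0.000156), which is 90.1% and 90.0% below E3.

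The profiles of the crest-high genes were close to each other. By Pearson's r of log2(FPKM + 1) over the 9 libraries, among the 20 genes with a group mean of 1 FPKM or more, FOXF2 (0.999), FOXD3 (0.998) and FOXL2 (0.997) were the most like FOXD1. FOXD1 (0.998), FOXF2 (0.997) and FOXL2 (0.995) were the most like FOXD3, and FOXL1 (0.999), FOXD1 (0.997) and FOXD2 (0.995) the most like FOXL2. These values are a description: the libraries form an E3 and a corneal cluster, and the contrast between them sets such values.

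Markers of other cell types moved with the same contrast. Of 14 vascular endothelial markers tested, 9 fell and 2 rose at E5 and at E7 against E3, where 17.7% of all genes fell and 18.5% rose at E5 and 16.4% fell and 17.3% rose at E7. The 9 at E7 became 5 without E7 library 1. Their summed level was 524 to 903 CPM at E5 and 510 to 814 CPM at E7, against 622 to 680 CPM at E3, with FLT4 and ERG, the 2 that rose, among the most abundant. None of the 14 was at 0 throughout a group, though CDH5, VE-cadherin, was at 0.05 to 3.83 FPKM at E5 and 0.08 to 3.17 FPKM at E7, against 35.6 to 41.5 FPKM at E3. All 5 tested erythroid markers fell in both comparisons (3 at E7 without any E3 library or E7 library 2), from a list of 7 with an entry whose sum was 1.53 to 43.4 CPM at E5 and 7.79 to 194 CPM at E7, against 2850 to 3330 CPM at E3. HBBA was at 0 throughout E3 and HBE1 throughout E5. Their part in the forkhead results was not tested.

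Markers of retina, glia and crest were read beside FOXD1 and FOXD3. Of all genes tested, 17.7% fell and 18.5% rose at E5 against E3, and 16.4% fell and 17.3% rose at E7. The neural retina list had 11 genes with an entry, of which only SFRP1 exceeded 1.04 FPKM in any library, and its sum was 72.9 to 112 CPM at E5 and 71.6 to 120 CPM at E7, against 227 to 230 CPM at E3. RAX, SIX6, NEUROD1 and POU4F3 were at 0 throughout E5, and NEUROD1, NEUROD4 and ISL1 throughout E7. Of its 3 tested genes 2 fell in both comparisons. SFRP1 was at 57.22 to 58.04 FPKM in the E3 libraries, OTX2 at 0.64 to 1.04 FPKM and ISL1 at 0.58 to 0.83 FPKM, and the part of retinal cells in the FOXD1 result was not tested. Of 10 glial and neuronal markers tested, 6 fell and none rose in both comparisons (3 at E7 without E3 library 1), with a summed level of 48.8 to 309 CPM at E5 and 48.4 to 303 CPM at E7 against 181 to 198 CPM at E3 and STMN2 at 0 throughout both corneal groups. The corneal sum was carried by FABP7, a fatty acid binding protein, at 41.64, 48.41 and 419.61 FPKM at E5 and 398.67, 380.44 and 41.32 FPKM at E7, against 105.31 to 114.14 FPKM at E3. SOX10, which marks migratory crest and glia, was at 0.01, 0.01 and 0.53 FPKM at E5 and 1.0, 0.45 and 0.10 FPKM at E7, against 14.51 to 17.20 FPKM at E3. The part of glial cells in the FOXD3 result was not tested.

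The crest marker list itself split. Of its 12 tested genes, 3 rose and 5 fell at E5 against E3, and 2 rose and 5 fell at E7. Among all genes 18.5% rose and 17.7% fell at E5, and 17.3% rose and 16.4% fell at E7. The numbers that rose are not read as more than these shares. Its summed level was 1050 to 1460 CPM at E5 and 970 to 1250 CPM at E7, against 603 to 727 CPM at E3, and no member was at 0 throughout a group. TFAP2B, a crest transcription factor, rose (log2 fold change 3.49 ± 0.15 at E5, adjusted p = 6.10e-06, and 3.26 ± 0.15 at E7, adjusted p = 7.46e-06), as did NGFR, the p75 neurotrophin receptor, by 1.14 ± 0.18 at E5 and 1.07 ± 0.18 at E7. SNAI2 rose at E5 by 0.55 ± 0.17 (adjusted p = 0.0356, and up to 0.105 when single libraries were left out). PAX3, a factor of early crest, was at 0.180 ± 0.144 FPKM at E5 and 0.147 ± 0.197 FPKM at E7, against 16.2 ± 1.89 FPKM at E3, and fell with SOX10 and MSX1.

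FOXE1 was the forkhead gene with the largest rise. FOXE1 (768789), known from thyroid and palate development, was at 0.15, 0.09 and 0.19 FPKM at E3, at 2.34, 1.87 and 0.80 FPKM at E5, and at 0.82, 0.81 and 2.49 FPKM at E7. The corresponding expected counts were 12, 8 and 18 at E3, 234, 184 and 65 at E5, and 35, 48 and 122 at E7. All corneal libraries lay above all E3 libraries, and E5 libraries 1 and 2 and E7 library 3 were the highest. The log2 fold change was 3.71 ± 0.67 at E5 against E3 (adjusted p = 0.00421) and 3.40 ± 0.66 at E7 against E3 (adjusted p = 0.00614). It remained called when any single library was left out, with adjusted p up to 0.0225 and 0.0303. The log2 fold changes without E5 library 3 and E7 library 3 were 4.06 ± 0.34 at E5 (adjusted p = 9.36e-05) and 2.58 ± 0.34 at E7 (adjusted p = 0.00104).

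Ectoderm and keratocyte markers also differed among the corneal libraries. The 9 surface ectoderm and corneal epithelium markers with an entry had summed levels of 17.8, 15.1 and 117 CPM in E5 libraries 1 to 3, and 275, 149 and 24.2 CPM in E7 libraries 1 to 3, against 14.9 to 16.9 CPM at E3. The keratocyte markers, 8 with an entry, had sums of 18100, 15200 and 5050 CPM at E5 and 6560, 5320 and 18700 CPM at E7, against 1080 to 1240 CPM at E3. In E5 libraries 1 and 2 and E7 library 3, where FOXE1 was highest, the ectoderm sum was at its lowest in the cornea and the keratocyte sum at its highest. The part of either cell type in the FOXE1 result was not tested.

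FOXO1 was the other gene that rose. FOXO1 (374231), a nuclear effector of insulin signalling that also acts in vascular endothelium, was at 4.87, 5.09 and 4.89 FPKM at E3, at 6.12, 8.01 and 14.83 FPKM at E5, and at 12.00, 14.18 and 7.10 FPKM at E7. The corneal libraries lay above the E3 libraries, with E5 library 3 and E7 libraries 1 and 2 the highest, the reverse of the FOXE1 order. The log2 fold change was 1.12 ± 0.32 at E5 (adjusted p = 0.0256) and 1.29 ± 0.32 at E7 (adjusted p = 0.0158). Leaving out any E3 library ended the E5 call, with adjusted p up to 0.0811, as did scaling by library totals alone, at 0.0581, and limma, at 0.0885 on log2(FPKM + 1) and 0.0796 on log2(FPKM + 0.1). The log2 fold change without an E3 library was 1.1 to 1.15. The E7 call was lost without any E3 library or E7 library 2, at adjusted p up to 0.0580. Without E5 library 3 and E7 library 3 the log2 fold changes were 0.72 ± 0.13 at E5 (adjusted p = 0.00280) and 1.5 ± 0.13 at E7 (adjusted p = 0.000140). Vascular markers differed in their order among the corneal libraries. CDH5 was highest in E5 library 3 and E7 libraries 1 and 2, at 2.02 to 3.83 FPKM. FLT4 was too, at 77.99 to 94.60 FPKM against 49.32 to 53.45 FPKM in the other corneal libraries. So were KDR, FLT1, EGFL7, ESAM, VWF and TAL1, all at or below 2.36 FPKM in the cornea. PECAM1, TIE1, LMO2 and CLDN5 followed neither order. ERG and TEK were lowest in E5 library 3 and E7 libraries 1 and 2. ERG was at 25.71 to 49.12 FPKM there, against 54.76 to 75.36 FPKM in the other corneal libraries. At E3, where FOXO1 was lowest, CDH5 was at 35.6 to 41.5 FPKM and FLT4 at 8.31 to 10.89 FPKM. The part of vascular cells in the FOXO1 values was not tested.

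The remaining FOXO genes did not follow FOXO1. FOXO3 (421769) was at 4.93, 4.87 and 4.71 FPKM at E3, at 2.59, 2.07 and 3.95 FPKM at E5, and at 3.72, 3.17 and 3.16 FPKM at E7. Both corneal groups lay below E3, but the log2 fold changes of -0.59 ± 0.20 (E5, adjusted p = 0.0503) and -0.39 ± 0.20 (E7, adjusted p = 0.165) did not pass. The E5 value passed with DESeq2 (adjusted p = 0.0203) and without E5 library 3 (-0.84, adjusted p = 0.00441). FOXO4 (428703) was at 11.79 to 13.21 FPKM at E3, 9.37 to 12.70 FPKM at E5 and 10.23 to 11.45 FPKM at E7, with 95% intervals of the log2 fold change from -0.24 to 0.26 at E5 and from -0.30 to 0.20 at E7.

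The measured genes of the P subfamily, FOXP4 and FOXP1, fell. FOXP4 (100858652) was at 50.14, 42.22 and 42.65 FPKM at E3, at 21.11, 19.50 and 25.87 FPKM at E5, and at 20.31, 23.45 and 18.30 FPKM at E7. The log2 fold changes were -0.85 ± 0.11 (E5, adjusted p = 0.00112) and -0.99 ± 0.11 (E7, adjusted p = 0.000590), with no overlap with E3. FOXP1 (416092) was at 14.44, 17.59 and 12.18 FPKM at E3, at 5.75, 8.62 and 4.24 FPKM at E5, and at 6.30, 5.85 and 7.72 FPKM at E7. It fell by 1.21 ± 0.38 on the log2 scale at E5 (adjusted p = 0.0371) and by 1.38 ± 0.38 at E7 (adjusted p = 0.0249). The E5 call was lost without E3 library 1 or 2, E5 library 1 or E7 library 1, at adjusted p up to 0.118. The E7 call was lost without E3 library 1 or 2 or E7 library 1 or 2, at adjusted p up to 0.0842.

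These genes have several transcript entries, among which the authors' estimates divide the reads. The FOXP1 entry with the gene number as its name was at 7.52, 8.64 and 8.67 FPKM at E3, at 2.89, 5.78 and 3.43 FPKM at E5, and at 4.46, 4.69 and 5.80 FPKM at E7. A longer FOXP1 entry (XM_015293115.1) was at 4.98, 6.34 and 1.73 FPKM at E3, at 0, 0.39 and 0 FPKM at E5, and at 0.37, 0.32 and 0 FPKM at E7. Both entries were higher in every E3 library than in any corneal one, while the entry XM_015293117.1 overlapped, at 0.81 to 2.86 FPKM at E5 and 0.84 to 1.92 FPKM at E7 against 1.78 to 2.39 FPKM at E3. With only the most abundant entry of each gene these calls were lost. FOXP1 then had log2 fold changes of -0.85 at E5 (adjusted p = 0.0586) and -0.58 at E7 (adjusted p = 0.169), and FOXP4 of -0.57 at both (adjusted p = 0.364 and 0.367). FOXN2 (421288), described next, had -0.45 at E5 (adjusted p = 0.227) and -0.14 at E7 (adjusted p = 0.735).

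FOXN2, summed over its entries, fell by less. It was at 11.53, 13.07 and 13.51 FPKM at E3, at 8.11, 8.0 and 7.73 FPKM at E5, and at 7.73, 8.78 and 7.17 FPKM at E7. The fall was 0.50 ± 0.09 on the log2 scale at E5 (log2 fold change -0.50, adjusted p = 0.00485) and 0.51 ± 0.09 at E7 (log2 fold change -0.51, adjusted p = 0.00442). FOXN3, a repressor of cell cycle genes, ranged from 2.41 to 4.32 FPKM at E5 and from 2.70 to 7.04 FPKM at E7, against 2.32 to 4.95 FPKM at E3, with overlap throughout (log2 fold change 0.17 ± 0.39 at E5, adjusted p = 0.759, and 0.73 ± 0.39 at E7, adjusted p = 0.180). FOXJ3 and FOXK1 were not called against E3, though their E7 FPKM lay below E3 without overlap. FOXJ3 was at 11.04 to 13.88 FPKM at E7 against 14.25 to 15.85 FPKM at E3. FOXK1 was at 4.89 to 5.79 FPKM at E7 against 6.51 to 7.04 FPKM at E3. At E5 both genes overlapped E3. With library totals alone FOXK1 was called as lower at E7 (log2 fold change -0.35, adjusted p = 0.0492). The 95% intervals of the log2 fold change against E3 were -0.09 to 0.36 at E5 and -0.29 to 0.16 at E7 for FOXJ3, and -0.12 to 0.39 at E5 and -0.47 to 0.05 at E7 for FOXK1.

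FOXM1 did not pass the test, while most of a list of its partners and mitotic targets did, as lower. FOXM1 (430534) was at 11.03, 7.36 and 8.32 FPKM at E3, at 7.69, 11.42 and 7.82 FPKM at E5, and at 7.51, 7.2 and 10.49 FPKM at E7. The stages overlapped, with log2 fold changes of 0.20 ± 0.25 at E5 (95% interval -0.37 to 0.76, adjusted p = 0.569) and 0.07 ± 0.25 at E7 (-0.50 to 0.63, adjusted p = 0.861). Of the 17 measured genes in a list of FOXM1 partners and mitotic targets, 12 fell and none rose at E5 (17.7% of all genes lower) and 13 fell and none rose at E7 (16.4% of all genes lower). The others did not pass, and without E5 library 3 and E7 library 3, 1 rose at E5. The list's median log2 fold change was -0.37 at E5 and -0.40 at E7, against 0.03 and 0.04 over all genes tested. With library totals alone these medians were -0.55 and -0.54, against -0.14 and -0.10 over all genes. The count that fell at E5 was 6 without E3 library 3 and 8 without E3 library 2 or E5 library 1. NEK2, a centrosomal kinase, was at 16.3 ± 1.40 FPKM at E5 and 17.5 ± 2.13 FPKM at E7, against 34.0 ± 2.25 FPKM at E3 (log2 fold change -0.88 ± 0.14, adjusted p = 0.00213, and -0.82 ± 0.14, adjusted p = 0.00312). AURKB, the kinase aurora B, was at 51.1 ± 2.19 FPKM at E5 and 53.5 ± 3.55 FPKM at E7, against 87.9 ± 3.00 FPKM at E3.

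**Figure D3:**
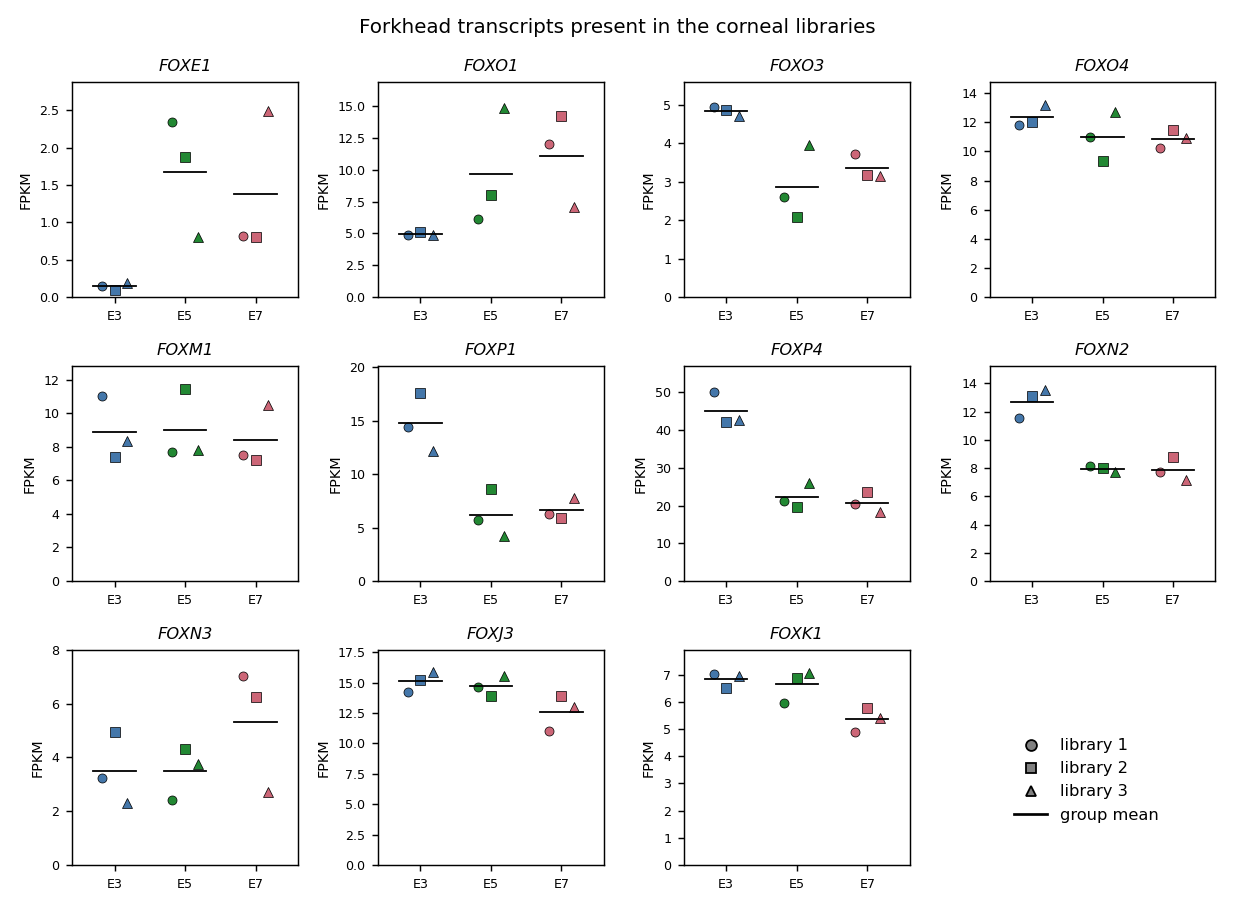
FPKM (y axis from 0, scaled for each gene) of the 11 forkhead genes in the E3, E5 and E7 libraries; each symbol is 1 library and each line a group mean. FOXE1 is highest in E5 libraries 1 and 2 and E7 library 3, at 1.87 to 2.49 FPKM, and FOXO1 in E5 library 3 and E7 libraries 1 and 2, at 12.00 to 14.83 FPKM.

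**Figure D4:**
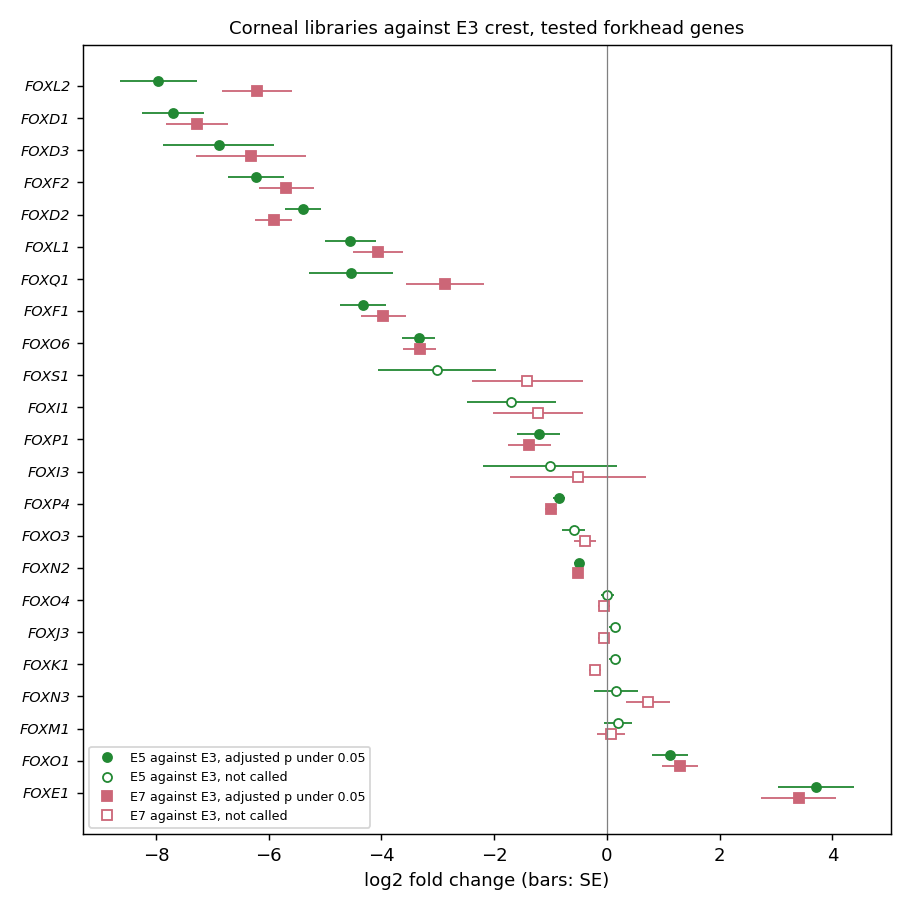
Log2 fold changes (x axis, bars are SE) of the 23 tested forkhead genes at E5 against E3 (circles) and E7 against E3 (squares), with filled symbols for adjusted p under 0.05. FOXL2 at -7.96 and FOXE1 at 3.71 mark the ends of the E5 order, and both comparisons share the E3 libraries.

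Forkhead genes of endoderm, ectoderm, placodes and brain were close to absent, apart from FOXE1. This class had 11 measured genes, of which FOXE1, FOXI1 and FOXI3 passed the filter. FOXI1, a factor of ectoderm and of ion-transporting cells, was at 0.08 to 0.10 FPKM at E3, 0.02 to 0.03 FPKM at E5 and 0 to 0.06 FPKM at E7, with log2 fold changes of -1.70 ± 0.79 (E5, adjusted p = 0.127) and -1.22 ± 0.80 (E7, adjusted p = 0.271). FOXI3, a factor of the otic placode, was at 0.25, 0.08 and 0.29 FPKM at E3, at 0.02, 0 and 0.26 FPKM at E5, and at 0.21, 0.15 and 0.04 FPKM at E7, with log2 fold changes of -1.01 ± 1.19 (E5, adjusted p = 0.542) and -0.51 ± 1.21 (E7, adjusted p = 0.777). FOXI3 in the cornea was highest in E5 library 3 and E7 libraries 1 and 2, the 3 libraries with the most ectoderm markers, and the part of such cells in these values was not tested.

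The remaining genes of this class missed the filter. FOXI2 was uneven at E3, with 0, 62.9 and 57.9 counts in E3 libraries 1, 2 and 3 and 0 counts in all 6 corneal libraries. With the same floor and the E3 libraries pooled, it was at least 43.2-fold lower at E5 and 23.3-fold lower at E7. These bounds leave out the spread among libraries. Without E5 library 3 and E7 library 3 FOXI2 passed the filter but was not called (adjusted p = 0.0695 at E5 and 0.107 at E7 against E3). E3 library 1 alone lacked it among the E3 libraries. Without that library FOXI2 was called as lower (adjusted p = 0.0179 at E5 and 0.0224 at E7 against E3), an omission that favours a difference. It was not called in the other 6 single omissions in which it passed the filter. FOXA1, FOXA2, FOXB1, FOXB2, FOXN1 and FOXN4 stayed at or below 0.18 FPKM in every library.

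E7 cornea, which adds the keratocytes by its label, was then compared with E5 endothelium. None of the 23 forkhead genes was called, as none of the 11748 genes was (0% called), with 2 forkhead genes and 279 genes in all at an unadjusted p under 0.05. DESeq2 called 5 genes as higher and 6 as lower, none of them a forkhead gene. The 2 at an unadjusted p under 0.05 were FOXK1, at 4.89, 5.79 and 5.42 FPKM at E7 against 5.98, 6.88 and 7.09 FPKM at E5 (log2 fold change -0.35 ± 0.11, adjusted p = 0.972), and FOXL2 (1.76 ± 0.73, adjusted p = 0.972), whose values rest on 2 to 6 counts a library at E7 and 0 to 4 at E5. The E7 libraries of FOXK1 lay below all E5 libraries, and those of FOXL2 overlapped. In all, 2 genes (FOXJ3 and FOXK1) were lower and 1 (FOXQ1, near 0 in both) higher without overlap, where 2% and 2.64% of all genes were (4.64% together).

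Without E5 library 3 and E7 library 3, FOXE1 was lower and FOXO1 higher at E7 than at E5. FOXE1 was then at 0.82 and 0.81 FPKM at E7 against 2.34 and 1.87 FPKM at E5 (log2 fold change -1.48 ± 0.35, adjusted p = 0.0245). FOXO1 was at 12.00 and 14.18 FPKM at E7 against 6.12 and 8.01 FPKM at E5 (0.78 ± 0.14, adjusted p = 0.00823). These were the only 2 forkhead genes called in that fit, in which 22.7% of all genes were (11.3% higher and 11.4% lower). The libraries were left out because they resembled the other stage, so that fit favours a difference, and it has 2 libraries in each of these groups. With all 9 libraries the log2 fold changes were -0.31 ± 0.59 for FOXE1 and 0.17 ± 0.31 for FOXO1 (adjusted p = 0.972 for each).

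**Figure D5:**
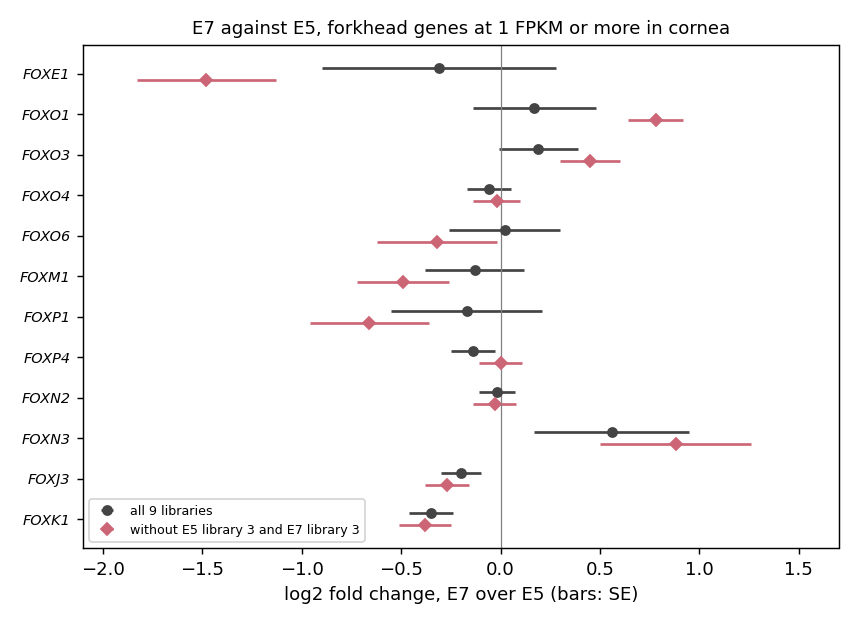
Log2 fold change of E7 over E5 (x axis, bars are SE) for the 12 forkhead genes at 1 FPKM or more in a corneal group, with all 9 libraries (circles) and without E5 library 3 and E7 library 3 (diamonds). FOXE1 stands at -0.31 with all libraries and -1.48 without the 2, and FOXO1 at 0.17 and 0.78.

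Genes that act around the forkhead factors were examined in 4 further lists, whose counts stand beside 18.5% of all genes higher and 17.7% lower at E5 and 17.3% higher and 16.4% lower at E7. Of 20 measured genes of the FOXO pathway, 4 rose and 1 fell at E5 against E3, and 3 rose and 1 fell at E7. SGK1, a kinase that phosphorylates FOXO3, was at 24.6 ± 2.14 FPKM at E5 and 25.4 ± 3.57 FPKM at E7, against 12.7 ± 1.83 FPKM at E3 (log2 fold change 1.13 ± 0.17, adjusted p = 0.00192, and 1.14 ± 0.17, adjusted p = 0.00199). The gene that fell was SESN1, a stress-induced inhibitor of growth signalling, at 4.24 ± 0.980 FPKM at E5 and 4.32 ± 0.853 FPKM at E7, against 31.8 ± 4.54 FPKM at E3 (-2.74 ± 0.22, adjusted p = 0.000115, and -2.73 ± 0.23, adjusted p = 0.000122). Its relative SESN3 rose at E5, to 30.5 ± 18.9 FPKM against 7.13 ± 1.85 FPKM at E3 (2.31 ± 0.70, adjusted p = 0.0345, and up to 0.111 when single libraries were left out). The number that rose at E5 was 1 without any E3 library or without E5 library 1 or 2, and 2 with library totals alone, where 4 fell. The number that rose at E7 was 1 without any E3 library or E7 library 2.

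Of 17 tested corepressors and cofactors of forkhead proteins, 2 rose and 3 fell at E5, and 2 rose and 5 fell at E7. The 5 became 3 without E3 library 1 or 2 or E7 library 1 or 2. TLE1, a Groucho-type corepressor, was at 3.59 ± 0.625 FPKM at E5 and 3.54 ± 0.458 FPKM at E7, against 7.58 ± 0.381 FPKM at E3 (log2 fold change -0.91 ± 0.14, adjusted p = 0.00187, and -0.98 ± 0.14, adjusted p = 0.00146). SMAD3, a TGF-beta effector, was at 86.1 ± 11.3 FPKM at E5 and 90.6 ± 9.62 FPKM at E7, against 47.0 ± 4.48 FPKM at E3 (1.04 ± 0.13, adjusted p = 0.000830, and 1.09 ± 0.13, adjusted p = 0.000708). Of 11 tested genes of motile cilia, which FOXJ1 switches on, none was called at E5 against E3, and 1 rose and 1 fell at E7.

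The 20 measured genes of anterior segment development moved in both directions, with 8 higher and 6 lower at E5 against E3 (18.5% and 17.7% of all genes) and 9 higher and 5 lower at E7 (17.3% and 16.4%). WNT9A, a WNT ligand, was at 62.1 ± 4.40 FPKM at E5 and 67.4 ± 7.90 FPKM at E7, against 0.263 ± 0.155 FPKM at E3. TGFB2, a growth factor of the anterior eye, was at 63.4 ± 13.3 FPKM at E5 and 63.6 ± 7.90 FPKM at E7, against 2.12 ± 0.208 FPKM at E3 (log2 fold change 5.07 ± 0.16, adjusted p = 2.01e-06, and 5.04 ± 0.16, adjusted p = 2.21e-06). The nuclear receptors NR2F1 and NR2F2 were among those that fell, NR2F1 to 7.78 ± 3.20 FPKM at E5 and 9.21 ± 2.32 FPKM at E7, against 66.7 ± 6.07 FPKM at E3 (log2 fold change -2.94 ± 0.28, adjusted p = 0.000265, and -2.73 ± 0.28, adjusted p = 0.000384). NR2F2 was at 13.8 ± 5.85 FPKM at E5 and 16.3 ± 2.20 FPKM at E7, against 91.4 ± 11.4 FPKM at E3.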

How the data were processed

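Each entry has an expected count and an FPKM, per the file headers, both made by the authors; the expected count can be fractional. Bowtie2, HISAT and galGal5 are named, per the submitters' processing notes. Versions, the counting program and strand use are not given in the sources here. The 46855 entries, gene numbers or RefSeq accessions, were named through a RefSeq gene table of assembly GRCg7b, with accessions matched without their version; 22897 entries stayed unmatched, so the sum over a gene can be partial. No coordinates are given, since the builds differ. Entries not listed were taken as 0. FPKM and counts were summed per gene, 6 of the 32 forkhead genes having 2 or more entries.

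In R 4.3.3, edgeR 4.0.16 was run on the rounded sums (TMM factors, library sizes from all entries, filterByExpr by group, quasi-likelihood F-test over all 9 libraries), with Benjamini-Hochberg adjustment over 11748 genes and a threshold of 0.05. The SE is the absolute log2 fold change divided by the square root of F. A floor of 3 counts is 0.129 to 0.304 CPM per library; floors cover counting error only. The steps were tested on simulated data. Alternatives were DESeq2 1.42.0, limma 3.58.1 on log2(FPKM + 1) and log2(FPKM + 0.1), other scalings, filters and entry choices, a block for the replicate number, and leaving out libraries. Every member could be named; other genes were up to 3 called members of a list per direction with a mean FPKM of 5 or more, not all of which are printed. Single marker genes (AQP1, KERA, CDH5, FLT4, ERG, TEK, FABP7, OTX2 and ISL1) were picked from the lists after their values were seen. Some items are not reported here. Members and lists were chosen with earlier results of these data known.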

Additional observations from a re-analysis of the deposited data

How the results depend on the processing

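Among the alternative tests of single forkhead genes, 1314 kept their side of the threshold, 31 lost a call, 25 gained one and no call reversed its direction. Genes that were not called could change sign. FOXM1 at E7 against E3 had log2 fold changes of -0.17 to 0.24 when single libraries were left out. The number of forkhead genes that rose at E5 against E3 was 1 with library totals alone, limma on log2(FPKM + 1) or log2(FPKM + 0.1), or the replicate block, and 1 to 2 when single libraries were left out; at E7 against E3 it was 1 to 2 when single libraries were left out. The replicate numbers showed no pairing of the libraries, as the deviations of same-numbered libraries correlated at -0.60 to 0.04. Between E5 and E7 this check could hardly show pairing, since E5 library 3 and E7 library 3 each resembled the other stage. With the block, FOXO1 missed the threshold at E5 (adjusted p = 0.07), FOXP1 at both stages and FOXQ1 at E7. The FOXO pathway genes that rose at E7 were then 1 and the cofactors that fell 3. Without E5 library 3 and E7 library 3, the count of forkhead genes at E7 against E5 was 1 higher and 1 lower.

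Over all genes, those lower at E5 against E3 were 3200 and 3147 with limma, in place of 2077. Leaving out single libraries gave 1424 to 2495 higher and 1334 to 2306 lower at E5 against E3, and 1329 to 2336 higher and 1250 to 2154 lower at E7 against E3. At E7 against E5, DESeq2 gave 5 higher and 6 lower, the most abundant entry 1 higher, limma on log2(FPKM + 0.1) 1 lower, single omissions 0 to 1 lower, and leaving out E5 library 3 and E7 library 3 gave 1350 higher and 1368 lower. Scaling by library totals alone moved the median log2 fold change of all genes from 0.03 to -0.14 at E5 and from 0.04 to -0.10 at E7 against E3; the cause was not tested. A gene with 0 counts in a library could still be at up to 0.129 to 0.304 CPM, depending on the library.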
